A study of Homo sapiens with 6 samples.

Results

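The genes described are 10 secreted mediators of keratinocyte inflammation, chosen by symbol: the chemokines *CXCL1*, *CXCL2*, *CXCL3*, *CXCL8*, *CXCL16*, *CCL5* and *CCL20* and the cytokines *IL6*, *TNF* and *TSLP*, out of 21475 genes in the deposited tables. Each symbol matched 1 gene identifier. RNA-seq was performed with HaCaT cells, a spontaneously immortalized human keratinocyte line, in 3 wild-type (WT) and 3 *FGFR2* knockout (KO) libraries. The comparison addresses whether loss of this fibroblast growth factor receptor changes the transcripts of the mediators. The KO lines were made with Cas9 protein and 1 guide RNA to exon 7 of *FGFR2* and grown from sorted single cells, so each KO line is 1 clone. The study's WT lines comprised the original population and expanded WT clones. A legend calls the sequenced WT lines clonally expanded, and the labels give replicate numbers only, so no library was tied to a named line. All lines were grown in medium with fetal bovine serum, and no inflammatory stimulus is named for these libraries, so the values are baseline levels.

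Chemokines are small secreted proteins that direct the migration of leukocytes through G protein-coupled receptors. CXCL1, CXCL2, CXCL3 and CXCL8 carry a glutamate-leucine-arginine (ELR) motif and attract neutrophils through CXCR1 and CXCR2. CXCL16 is a membrane-anchored ligand of CXCR6 that can be shed, CCL5 attracts T cells and monocytes, and CCL20 attracts cells with CCR6. IL-6 and TNF are general inflammatory cytokines, and TSLP is an epithelial cytokine that acts on dendritic cells in allergic inflammation. Many of these genes are kept low in resting keratinocytes and are induced through NF-κB and AP-1, and their mRNAs are often short-lived because AU-rich elements in the 3′ untranslated region recruit decay factors.

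The stretches of 150 bases upstream of the transcription start of 5 of the genes are shown because they carry the candidate NF-κB letters that the ELR chemokines share. The pattern GGNNNTTCC was searched on both strands, and matches are in capitals. Sequences are from RefSeq on GRCh38.p14 and run 5′ to 3′ on the strand of the gene.
CXCL1: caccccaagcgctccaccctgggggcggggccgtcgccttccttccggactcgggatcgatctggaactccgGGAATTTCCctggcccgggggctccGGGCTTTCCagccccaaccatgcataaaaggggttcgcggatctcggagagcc
CXCL2: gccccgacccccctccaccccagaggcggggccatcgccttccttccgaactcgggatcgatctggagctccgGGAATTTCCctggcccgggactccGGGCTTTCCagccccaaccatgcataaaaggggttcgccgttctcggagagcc
CXCL3: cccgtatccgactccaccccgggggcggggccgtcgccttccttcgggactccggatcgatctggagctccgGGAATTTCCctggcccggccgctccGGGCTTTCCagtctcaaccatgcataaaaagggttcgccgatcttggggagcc
CXCL8: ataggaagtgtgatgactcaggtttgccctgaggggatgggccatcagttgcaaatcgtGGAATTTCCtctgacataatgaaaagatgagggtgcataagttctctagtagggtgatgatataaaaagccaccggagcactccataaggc
IL6: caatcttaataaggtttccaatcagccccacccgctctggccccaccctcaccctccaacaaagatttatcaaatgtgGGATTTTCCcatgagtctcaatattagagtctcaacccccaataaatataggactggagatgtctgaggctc
They lie at chr4:73869243-73869392 on the plus strand for *CXCL1*, at chr4:74099196-74099345 on the minus strand for *CXCL2*, at chr4:74038690-74038839 on the minus strand for *CXCL3*, at chr4:73740419-73740568 on the plus strand for *CXCL8* and at chr7:22727050-22727199 on the plus strand for *IL6*. For *CXCL3* and *CXCL8* part of the stretch, and for *IL6* all of it, is inside the GENCODE gene, which begins further upstream than the RefSeq start. *CXCL1*, *CXCL2* and *CXCL3* each held GGAATTTCC and GGGCTTTCC, the latter beginning 53 bases before the start in all 3. *CXCL8* held GGAATTTCC from position -91 and *IL6* held GGATTTTCC from position -72, counted from the start. *CCL20* held a match on the other strand, GGAAAACCC from position -79, and the stretch of *TNF* held none. The pattern occurred in 11.1% of 35116 upstream stretches of the same length, and a match is a description of the letters only. After alignment, *CXCL1* and *CXCL2* were identical at 89.9% of positions, *CXCL1* and *CXCL3* at 89.3% and *CXCL2* and *CXCL3* at 87.2%, whereas each of them was identical to *CXCL8* at 48.6% to 51.1%. An AP-1 pattern (TGANTCA, both strands, in 4.17% of stretches) was found in *CXCL8*, and a TATA pattern (TATAAA, plus strand, in 4.54% of stretches) in *CXCL8*, *CCL20* and *TNF*. The upstream stretches of *CXCL16*, *CCL5* and *TSLP* were not searched for any of these patterns.

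The 4 ELR genes lie in the chemokine cluster of chromosome 4 (GRCh38, GENCODE 44), *CXCL8* at 73740519-73743716 and *CXCL1* at 73869393-73871308 on the plus strand, and *CXCL3* at 74036589-74038807 and *CXCL2* at 74097040-74099196 on the minus strand. *CXCL16* (4733533-4739928) and *CCL5* (35871491-35880793) lie on the minus strand of chromosome 17. In the 3′ untranslated region of the representative transcript, the AU-rich pentamer AUUUA occurred 14.1 times per kb in *IL6*, 13.97 in *CXCL2*, 11.3 in *TNF*, 10.4 in *CXCL3*, 7.77 in *CXCL1*, 7.19 in *CXCL8*, 6.34 in *CCL20* and 3.59 in *TSLP*. The median of 18780 genes was 1.55 per kb, and 31.7% of them had none. *CXCL16* had 1.03 per kb and *CCL5* had none. *CXCL1* and *CXCL8*, the other 2 of the 4 genes with the highest mean level, had more per kb than *CCL20* and *TSLP*. A relation between the pentamers and the level was not tested.

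Depth, estimated from the steps between low values, was 67700000 to 87900000 fragments, and 1 fragment on a transcript of 1 kb was worth 0.0114 to 0.0148 FPKM, a unit scaled for transcript length and library depth. *FGFR2* was at 21.6, 39.7 and 15.02 FPKM in the WT libraries and at 3.04, 2.26 and 4.31 FPKM in the KO libraries. All 8 keratinocyte markers were above 1 FPKM in every library. Of 7 immune cell markers, 1 (*CD68*) was above 1 FPKM in every library and 4 were below 1 FPKM in all, with summed levels of 12.8 to 23.4 FPKM in WT and 5.35 to 12.005 FPKM in KO. WT replicate 2 and KO replicate 3 stood furthest from the others, with a median SD of the log2 difference to the other libraries of 0.669 and 0.671, beside 0.431 to 0.517 for the remaining 4. KO replicate 3 had the lowest share of FPKM in mitochondrial genes, 11.9%, beside 15.8% to 27.6%. Several markers of other cells, but not all, were highest in WT replicate 2. Among them were the fibroblast markers *DCN* (15.5 FPKM) and *COL1A1* (16.7 FPKM) and the endothelial marker *CDH5* (4.92 FPKM). So were the immune cell markers *CD68* (20.4 FPKM) and *CD14* (1.62 FPKM) and the melanocyte marker *PMEL* (2.43 FPKM). The fibroblast marker *LUM* was highest in KO replicate 1 (1.85 FPKM). The endothelial marker *VWF* (27.1 FPKM) and the immune cell marker *PTPRC* (0.153 FPKM) were highest in WT replicate 3. These markers were named after their values were seen, and the part of any of these differences in the chemokine values was not tested.

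At baseline, *CXCL16* dominated the group and most of the others were close to the limit of detection. FPKM is scaled for length, so levels can be ordered between genes: the means over 6 libraries were 40.2 FPKM for *CXCL16*, 3.11 for *CXCL1*, 0.908 for *CXCL8*, 0.735 for *CCL5*, 0.132 for *CXCL3*, 0.0958 for *IL6*, 0.0329 for *CCL20*, 0.0272 for *CXCL2*, 0.0163 for *TSLP* and 0.0129 for *TNF*. *CXCL16* held 83.1% to 93.5% of the summed FPKM of the 10 genes in a library. Only the step from *CXCL16* to *CXCL1* separated neighbours without overlap of their ranges. *CXCL1* exceeded *CXCL8* in 6 of 6 libraries although the ranges overlapped, *CXCL8* exceeded *CCL5* in 4 of 6, *CCL5* exceeded *CXCL3* and *CXCL3* exceeded *IL6* in 5 of 6 each, and from *IL6* downward each gene exceeded the next in 3 or 4 of 6.

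The limma test on log2(FPKM + 0.5) was limited to genes averaging 0.5 FPKM or more, which left 4 of the 10, *CXCL1*, *CXCL8*, *CXCL16* and *CCL5*. None of the 4 passed an adjusted p of 0.05 with a log2 fold change of 0.5, and limma called 0 of all 12241 genes tested (0.0%), with a smallest adjusted p of 0.261 and 2065 genes (16.9%) at an unadjusted p of 0.05. None of the 4 passed an unadjusted p of 0.05 with that fold change either, which 12.5% of the tested genes did, 10.2% higher and 2.33% lower in KO. The WT and KO ranges overlapped for all 4, whereas 24.1% of the tested genes had ranges that did not overlap, 18.3% with KO above and 5.77% with KO below. The median log2 fold change of the 4 was 0.29, beside 0.09 over all tested genes. The libraries of a group are separate lines, and p-values measure the spread between these lines. In bulk RNA, fewer cells that express a gene and less RNA of it per cell cannot be told apart.

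*CXCL1* (ENSG00000163739), the ELR chemokine with the highest mean here, was at 5.69, 2.97 and 1.49 FPKM in WT replicates 1 to 3 and at 1.39, 4.05 and 3.11 FPKM in KO replicates 1 to 3. The highest value was in WT replicate 1 and the lowest in KO replicate 1, and the groups overlapped. WT libraries averaged 3.38 ± 2.13 FPKM (SD, n = 3) and KO libraries 2.85 ± 1.35 FPKM. The log2 fold change was -0.15 (standard error 0.47, 95% interval -1.25 to 0.95, limma adjusted p = 0.886), with interval bounds of 0.420-fold to 1.93-fold on the linear scale of FPKM + 0.5. Leaving out WT replicate 1 turned the log2 fold change to 0.26, and leaving out KO replicate 1 to 0.21.

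*CXCL8* (ENSG00000169429), which encodes interleukin-8, was at 0.891, 0.406 and 0.385 FPKM in WT and at 0.347, 1.68 and 1.74 FPKM in KO replicates 1 to 3. KO replicates 2 and 3 were above every WT library, and KO replicate 1 was the lowest of all 6. WT libraries averaged 0.560 ± 0.286 FPKM (SD, n = 3) and KO libraries 1.26 ± 0.787 FPKM. The log2 fold change was 0.63 (standard error 0.42, 95% interval -0.36 to 1.62, limma adjusted p = 0.462). Without KO replicate 1 it was 1.09 with an unadjusted limma p of 0.0099 and an adjusted p of 0.336, without KO replicate 2 it was 0.41, without KO replicate 3 it was 0.39, and with library weights it turned to -0.11.

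*CXCL3* and *CXCL2* lay under the filter. *CXCL3* (ENSG00000163734) was at 0.119, 0.0571 and 0.0271 FPKM in WT and at 0.176, 0.217 and 0.194 FPKM in KO replicates 1 to 3. Each KO library was above each WT library, and the KO libraries lay closer together than the WT libraries. The mean was 0.0678 ± 0.0470 FPKM in WT and 0.195 ± 0.0205 FPKM in KO (SD, n = 3 each), 2.88 times the WT mean, with a two-sided exact permutation p of 0.1, the smallest that 3 against 3 libraries allow. With 1 library left out, the ratio of the means was 2.22 to 4.64, the highest without WT replicate 1. A limma fit without the filter gave a log2 fold change of 0.30 on log2(FPKM + 0.5), which understates changes at this level, with an unadjusted p of 0.0073 and an adjusted p of 0.474. *CXCL2* (ENSG00000081041) ranged from 0.0185 to 0.0327 FPKM in WT and from 0.0151 to 0.0402 FPKM in KO, about 1 to 3 fragments in a library, and the groups overlapped (exact permutation p = 0.5). Of 6 genes under the filter, 2 (*CXCL3* and *IL6*) had KO values above all WT values, as had 4.5% of the 6329 genes under the filter with a value above 0 (8.96% did not overlap in either direction, 4.46% with KO below).

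The 3 genes *CXCL1*, *CXCL2* and *CXCL3* share sequence, which limits how reads can be assigned between them. Of the 31-base words in the transcripts of *CXCL2*, 23.6% also occurred in another gene, against 13.7% for *CXCL1* and 9.23% for *CXCL3*. *CXCL2* and *CXCL3* shared 200 of these words, *CXCL1* and *CXCL2* shared 165, and *CXCL1* and *CXCL3* shared 40. *CXCL8* shared none. The values of *CXCL1*, *CXCL2* and *CXCL3* are therefore uncertain with respect to each other.

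The ratio between 2 genes of a library does not depend on how libraries are scaled, and it separated the groups for *CXCL1* and *CXCL3*. FPKM of *CXCL1* was 47.7, 52.0 and 54.9 times that of *CXCL3* in WT and 7.90, 18.7 and 16.0 times in KO replicates 1 to 3. The groups did not overlap, with means of 51.5 ± 3.62 in WT and 14.2 ± 5.62 in KO (SD, n = 3 each; two-sided exact permutation test on log2 ratios, p = 0.1, adjusted p = 0.3 over 3 ratios). In WT the ratio of *CXCL1* to *CXCL3* rested on few fragments of *CXCL3*, which was at 0.0271 FPKM in WT replicate 3. There, 1 fragment on 1 kb was worth 0.0140 FPKM, and fragments of *CXCL3* were not estimated. The ratio of *CXCL1* to *CXCL8* was 6.38, 7.31 and 3.86 in WT and 4.0, 2.405 and 1.79 in KO, and WT replicate 3 and KO replicate 1 overlapped (exact permutation p = 0.2, adjusted p = 0.3). The ratio of *CXCL1* to *CXCL2* was 80.2 to 174 in WT and 77.2 to 109 in KO and rested on the few fragments of *CXCL2* (exact permutation p = 0.3, adjusted p = 0.3). These ratios were chosen after the values were seen. *CXCL3* alone already had each KO library above each WT library, so the ratio of *CXCL1* to *CXCL3* is not an independent comparison.

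**Figure D1:**
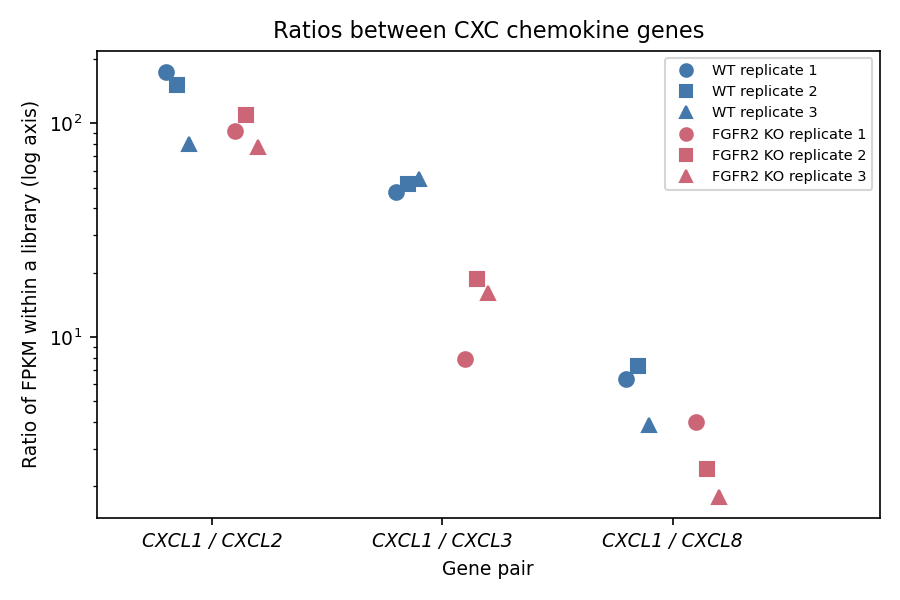
Ratio of the FPKM of *CXCL1* to that of *CXCL2*, *CXCL3* and *CXCL8* within each library, on a log axis. For *CXCL3* the WT libraries lie between 47.7 and 54.9 and the KO libraries between 7.90 and 18.7, and for the other two genes the groups overlap.

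*CXCL16* (ENSG00000161921), the ligand of CXCR6, was at 39.3, 54.9 and 29.4 FPKM in WT and at 29.2, 45.8 and 42.3 FPKM in KO replicates 1 to 3. WT replicate 2 was the highest library, and the groups overlapped. The means of 41.2 ± 12.9 FPKM in WT and 39.1 ± 8.75 FPKM in KO (SD, n = 3 each) gave a log2 fold change of -0.05 (standard error 0.26, 95% interval -0.67 to 0.56, limma adjusted p = 0.929). It was the most narrowly measured of the 4 tested genes, with an interval of 0.630-fold to 1.47-fold. Without WT replicate 2 the log2 fold change was 0.17.

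*CCL5* (ENSG00000271503), an attractant of T cells, was at 0.509, 0.182 and 0.155 FPKM in WT and at 0.553, 2.91 and 0.102 FPKM in KO replicates 1 to 3. KO replicate 2 had the highest and KO replicate 3 the lowest value of the 6 libraries. Averages of 0.282 ± 0.197 FPKM for WT and 1.19 ± 1.51 FPKM for KO libraries were found (SD, n = 3 each), and the log2 fold change was 0.75 (standard error 0.60, 95% interval -0.64 to 2.15, limma adjusted p = 0.531). Without KO replicate 2 it was 0.05, and without KO replicate 3 it was 1.31 with an unadjusted limma p of 0.048 and an adjusted p of 0.634. The interferon-stimulated genes *OASL* and *ISG15* were also highest in KO replicate 2, at 28.2 and 25.4 FPKM, and these 2 genes were chosen after their values were seen. In KO replicates 1 and 3, *OASL* was at 9.61 and 3.33 FPKM and *ISG15* at 10.6 and 9.83 FPKM. Both were therefore above every WT library in every KO library, unlike *CCL5*. Of the 31-base words of *CCL5*, 25.2% occurred elsewhere. Among them were 194 in genes annotated as signal recognition particle RNA, pooled over all genes of that name, and 162 in *XACT*. A word can count for both.

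**Figure D2:**
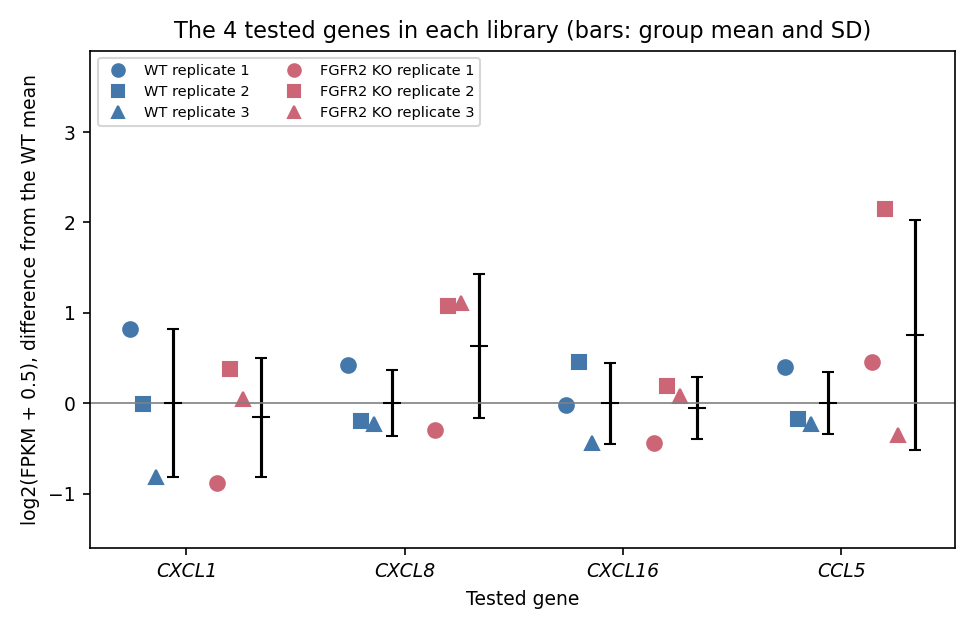
Difference of log2(FPKM + 0.5) from the WT mean for the 4 tested genes in each library, with bars for the group mean and SD. *CXCL8* is high in KO replicates 2 and 3 and *CCL5* in KO replicate 2, while the groups overlap for all 4 genes.

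*CCL20* (ENSG00000115009) was at 0, 0.0861 and 0.0408 FPKM in WT and at 0.0166, 0.0204 and 0.0336 FPKM in KO replicates 1 to 3, which corresponds to 6 fragments in WT and 4 in KO. The groups overlapped (exact permutation p = 0.6), and the value of 0 in WT replicate 1 allows up to 0.0539 FPKM by counting error. The rate ratio of KO to WT was 0.597, with a 95% interval of 0.124 to 2.52 that covers counting error only.

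*IL6* (ENSG00000136244) was at 0, 0.0346 and 0.0164 FPKM in WT and at 0.0931, 0.377 and 0.0540 FPKM in KO replicates 1 to 3. All KO libraries were above all WT libraries, and KO replicate 2 was the highest. WT libraries averaged 0.0170 ± 0.0173 FPKM and KO libraries 0.175 ± 0.176 FPKM (SD, n = 3 each; two-sided exact permutation p = 0.1). In fragments, this was 0, 2 and 1 in WT and 7, 23 and 4 in KO, with up to 0.0433 FPKM allowed by the 0 in WT replicate 1, and a rate ratio of 10.1 with a 95% interval of 3.19 to 51.6 that covers counting error only. Without KO replicate 2 the rate ratio was 4.62 with an interval of 1.22 to 25.8, and without WT replicate 2 the ratio of the mean FPKM was 21.3. A limma fit without the filter gave a log2 fold change of 0.35 with an adjusted p of 0.551. *IL6* shares 369 of its 31-base words with the overlapping antisense gene *IL6-AS1*, and whether strand was used in quantification is not given in the sources used here.

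*TNF* (ENSG00000232810) was detected in 3 of 6 libraries, at 0, 0.0351 and 0.0083 FPKM in WT and at 0.0338, 0 and 0 FPKM in KO replicates 1 to 3, with 5 fragments in each group. The values of 0 allow up to 0.0221 FPKM in WT replicate 1, 0.0251 FPKM in KO replicate 2 and 0.0206 FPKM in KO replicate 3. *TSLP* (ENSG00000145777) was at 0.0048, 0.0231 and 0.0055 FPKM in WT and at 0.0401, 0.0110 and 0.0135 FPKM in KO, from 6 fragments in WT and 14 in KO, of which 9 were in KO replicate 1. The groups overlapped for both genes (exact permutation p = 0.7 for *TNF* and 0.5 for *TSLP*).

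**Figure D3:**
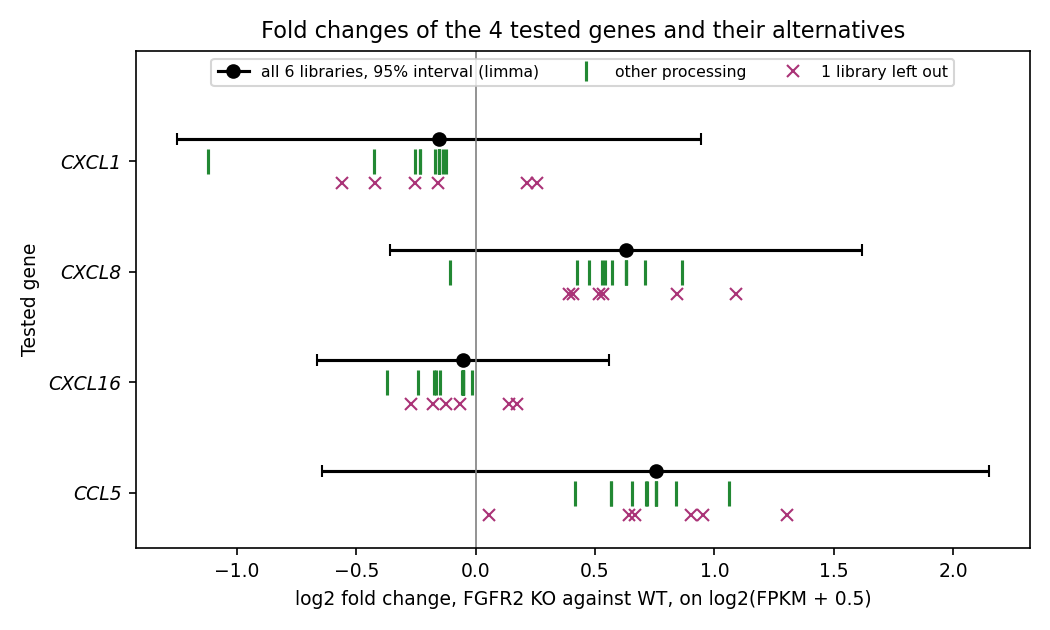
Log2 fold change of *FGFR2* KO against WT for the 4 tested genes, with the 95% limma interval from all 6 libraries (black), the values under other processing (green) and the values with 1 library left out (purple). Every interval includes 0, and the value of *CCL5* ranges from 0.05 to 1.31 with 1 library left out.

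The genes whose pattern over the 6 libraries was most like that of a tested chemokine were found by the root mean square difference of centred log2(FPKM + 0.5). *MNS1* was among those named for *CXCL8* (0.18), where the spread of *CXCL8* itself was 0.60. *MNS1* was at 9.08 to 10.4 FPKM in WT and at 8.80, 22.9 and 24.1 FPKM in KO replicates 1 to 3, so it was also high in KO replicates 2 and 3 alone. For *CCL5* these were *TMEM176A* (0.35) and *DDX60* (0.36), against a spread of 0.85. *DDX60*, an interferon-induced helicase, was at 5.60, 3.71 and 3.97 FPKM in WT and at 11.2, 30.03 and 5.83 FPKM in KO replicates 1 to 3. All KO libraries were above all WT libraries for *DDX60*, whereas the groups overlapped for *CCL5*. *PLXDC2* (0.30) and *MAFA* (0.31) were closest to *CXCL1*, and *GULP1* (0.06) and *H1-3* (0.07) to *CXCL16*.

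Of 31 other chemokine genes, 12 were listed at 0 in all 6 libraries and 3 passed the filter. *CXCL10*, an interferon-inducible chemokine, was among those at 0, which allows up to 0.0290 to 0.0377 FPKM for a transcript of 1175 bases. *CXCL14*, a chemokine of resting epithelium, was at 10.6, 3.69 and 11.2 FPKM in WT and at 3.05, 1.74 and 0.321 FPKM in KO replicates 1 to 3. Its KO libraries were all below its WT libraries, and the log2 fold change was -2.13 (standard error 0.60, limma unadjusted p = 0.0081, adjusted p = 0.261). It was the single other chemokine past the unadjusted threshold, which 2.33% of all tested genes passed in the same direction. *CXCL6*, an ELR chemokine of the same cluster, was at 1.02 to 3.07 FPKM in WT and 1.63 to 2.88 FPKM in KO, and *CCL28* had a log2 fold change of 0.17, neither past it.

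Of 34 other cytokine genes outside the IL-1 family, 12 passed the filter, and 2 were higher and 1 lower in KO at the unadjusted threshold. Over all tested genes, 10.2% were higher and 2.33% lower at it. *TNFSF10*, which encodes the death ligand TRAIL, was at 78.1, 133 and 53.1 FPKM in WT and at 36.4, 45.2 and 18.3 FPKM in KO, a log2 fold change of -1.38 (standard error 0.41). *MIF*, which encodes macrophage migration inhibitory factor, was at 246, 190 and 311 FPKM in WT and at 461, 337 and 518 FPKM in KO, a log2 fold change of 0.82 (standard error 0.24). For *TNFSF15*, a T cell costimulator of the TNF family, it was 0.58 (standard error 0.21). The adjusted p was 0.261 for all 3 in limma. Without WT replicate 3, 6 of the 12 passed that threshold instead of 3, and 6 did with library weights. The number fell to 2 with median-of-ratios, *RPL27* and chromosome-median scaling, and without WT replicate 1 or KO replicate 3. The median log2 fold change of the 12 was 0.49, beside 0.09 over all tested genes.

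Of 15 receptor genes for the 10 mediators, 6 passed the filter and none passed the unadjusted threshold. This count was 2 with *RPL27* scaling and without KO replicate 1, and 1 with median-of-ratios, quantile and chromosome-median scaling, library weights and the replicate block, and without WT replicate 1, WT replicate 3 or KO replicate 2. *IL7R*, which encodes a chain of the TSLP receptor, was at 7.16, 6.54 and 4.45 FPKM in WT and at 5.56, 20.7 and 14.997 FPKM in KO replicates 1 to 3, high in the same 2 KO libraries as *CXCL8*, with a log2 fold change of 0.97 (limma unadjusted p = 0.061, adjusted p = 0.311). *CXCR2*, the receptor of the ELR chemokines, was at 4.14 to 13.6 FPKM in WT and at 1.53 to 4.63 FPKM in KO, with a log2 fold change of -1.12 (adjusted p = 0.308). *TNFRSF1A*, the main TNF receptor, was at 221 to 299 FPKM in WT and at 178 to 263 FPKM in KO.

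All 11 genes of shedding and mRNA decay passed the filter, 3 were higher at the unadjusted threshold and none was lower, beside 10.2% and 2.33% of all tested genes. The 3 fell to 1 with median-of-ratios, quantile, *RPL27* and chromosome-median scaling and without KO replicate 3. *RHBDF2*, a partner of the TNF-shedding protease ADAM17, was at 9.15, 10.1 and 9.48 FPKM in WT and at 18.6, 14.9 and 26.1 FPKM in KO, a log2 fold change of 0.98 (standard error 0.21). *ELAVL1*, which encodes the mRNA-stabilizing protein HuR, had a log2 fold change of 0.59 and *KHSRP*, which encodes a decay factor, one of 0.50, and with *RPL27* scaling these were 0.27 and 0.18. *RPL27* itself was at 527 to 570 FPKM in WT and at 608 to 809 FPKM in KO, a log2 fold change of 0.32. Scaling by it therefore lowers KO values against WT values for every gene. *ADAM17* (0.01), *ADAM10* (-0.03) and *ZFP36* (-0.10), which encodes the decay factor tristetraprolin, had log2 fold changes near 0.

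All 16 genes of NF-κB and AP-1 regulators passed the filter, 3 were higher and 1 lower at the unadjusted threshold, beside 10.2% and 2.33% of all tested genes. These 4 were 2 without WT replicate 1, WT replicate 2, KO replicate 1 or KO replicate 3. *FOSL1*, an AP-1 subunit, was at 6.25, 6.45 and 8.50 FPKM in WT and at 19.3, 17.8 and 40.3 FPKM in KO, a log2 fold change of 1.71 (standard error 0.31). The AP-1 genes *FOS* and *JUN* had log2 fold changes of 1.51 and 0.67 and *REL*, an NF-κB subunit, one of -0.52. *RELA* (-0.13), *NFKB1* (0.17) and *NFKBIA* (-0.16), the NF-κB inhibitor gene, were not past the threshold. The adjusted p was 0.261 for *FOSL1*, *FOS* and *REL* and 0.285 for *JUN* in limma. KO replicate 3 held the most extreme KO value of *CXCL14*, *TNFSF10*, *RHBDF2* and *FOSL1*, and without it their log2 fold changes were -1.53, -1.004, 0.77 and 1.34. The most extreme KO value of *MIF*, *FOS*, *ELAVL1*, *KHSRP* and *REL* was also in KO replicate 3. With 1 library left out, the smallest log2 fold changes of these genes were 0.64, 1.38, 0.40, 0.37 and -0.42, in that order. For *ELAVL1*, *KHSRP* and *REL* this is under the required change of 0.5.

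**Figure D4:**
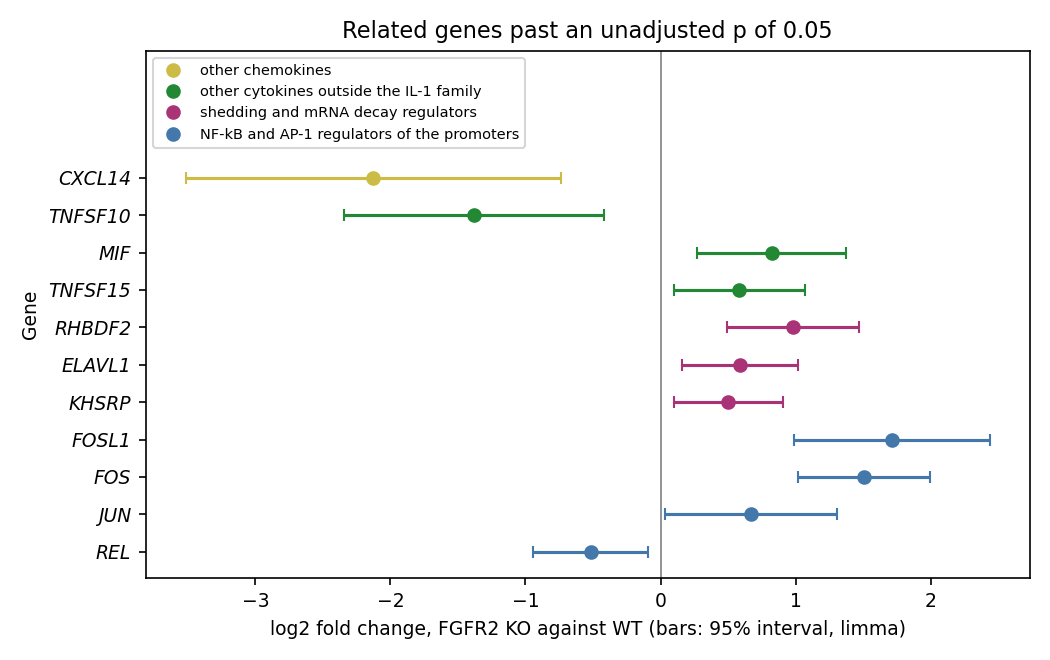
Log2 fold change of *FGFR2* KO against WT with 95% limma intervals for the 11 genes of the related lists past an unadjusted p of 0.05 and a log2 fold change of 0.5. *CXCL14*, *TNFSF10* and *REL* were lower and the other 8 higher in KO at that unadjusted threshold, and the adjusted p was 0.261 or more for each.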

How the data were processed

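RNA-seq libraries of 3 WT and 3 *FGFR2* KO HaCaT lines were poly(A)-enriched and stranded, and sequenced paired-end. The authors trimmed reads with fastp 0.20.0, quantified them with Kallisto 0.46.1 against GRCh38.p13 and GENCODE, and deposited FPKM per gene and library. How FPKM was derived is not given in the sources used here. Assignment by Kallisto can split reads between paralogs. Genes averaging 0.5 FPKM or more were tested with limma 3.58.1 (R 4.3.3) on log2(FPKM + 0.5) with a mean-variance trend, over the 6 libraries, with Benjamini-Hochberg adjustment. Calls required an adjusted p up to 0.05 and a change of 0.5 or more on the log2 scale. The fit was checked on simulated data. Single genes were also compared by two-sided exact permutation tests. Depth and fragments were estimated from steps between FPKM values, where 57.0% of low values were whole fragments within 0.02, so no counts were recovered for a count test. Intervals and limits cover counting error only. Sequence features came from RefSeq upstream sequences and GENCODE 44, which is on the same build but a different release from the authors'. All 10 genes are given in full. From each related list, the genes past the unadjusted threshold were named, at most 6 a list, with *CXCL10* and the 2 nearest genes of each tested chemokine (1 of them is not reported here), and other genes named were chosen after their values were seen. The members and lists were chosen with earlier results of these data known. Alternatives were other pseudocounts, filters, scalings and fits, a replicate block, and leaving out each library.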

Additional observations from a re-analysis of the deposited data

How the results depend on the processing

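Of the 4 tested chemokines, none passed the adjusted threshold under any alternative run. With library weights in limma, which gave WT replicate 1 89.7% of the WT weight, 1396 genes were called against 0, the log2 fold change of *CXCL8* was -0.11, and 1 of the chemokines passed the unadjusted threshold, *CXCL1* with -1.12 (adjusted p = 0.121). The cause was not tested. With 1 library left out, 0 to 1 of them passed the unadjusted threshold. Those log2 fold changes ranged from -0.56 to 0.26 for *CXCL1*, from -0.27 to 0.17 for *CXCL16*, from 0.39 to 1.09 for *CXCL8* and from 0.05 to 1.31 for *CCL5*. *CXCL1* was at 0.26 without WT replicate 1 and 0.21 without KO replicate 1, and *CXCL16* at 0.17 without WT replicate 2 and 0.14 without KO replicate 1. *CXCL8* and *CCL5* have no value at a mean of at least 2 FPKM. Scaling moved the split of unadjusted calls from 1251 higher and 285 lower to 817 and 488 with median-of-ratios, and to 349 and 1404 with *RPL27*, where the median of all genes was -0.21. Same-numbered libraries had correlations of -0.21, 0.22 and 0.05, and differently numbered ones of -0.37 to 0.29. A pairing of the samples by number was therefore not shown. The replicate block cannot move a fold change in this balanced design (-0.15, 0.63, -0.05 and 0.75 for *CXCL1*, *CXCL8*, *CXCL16* and *CCL5*). It changed their standard errors to 0.50, 0.46, 0.22 and 0.52 and called 0 genes. Depth limits *CXCL2*, *CCL20*, *TNF* and *TSLP*, which rest on a few fragments a library. It also limits the WT values of *IL6*, with 0, 2 and 1 fragments, and of *CXCL3*, at 0.0271 FPKM in WT replicate 3.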
